A study of Mus musculus with 7 samples.

Results

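A set of 8 genes separated by CD34 state in EML cells is described here: Nrgn, Gem, P2rx3, Ugt1a7c, Prss16, Cdh17, Csrp3 and Acp5. Most of them are better known from tissues other than blood. They were picked because their RNA level in every CD34-positive library lay on the same side of every CD34-negative library and because they have no standard role in blood progenitors. All 8 of the 8 named genes were found, among 20464 rows of the deposited table. The separation of the 2 groups is therefore how these genes were chosen, and their CD34 differences are given as values, without a test.

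EML is a mouse multipotent progenitor line, made from bone marrow with a dominant-negative retinoic acid receptor, that can give erythroid, myeloid and lymphoid cells. All groups are this line. RNA of sorted live cells, from which Annexin V-positive apoptotic cells had been gated out, was sequenced in 3 CD34-positive and 4 CD34-negative libraries. The strain label of every library is C57BL/6, and no treatment or transgene is named. The CD34-negative libraries bear CD43 negative in a genotype label, and their grouping here rests on their titles. Other labels give bone marrow as tissue and a postnatal age, whereas the source label is the cell line, and it was taken as what was sequenced. The labels do not say that the libraries came from separate cultures, so spreads and p-values concern these libraries and may be technical.

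The sample descriptions carry the numbers 2, 3 and 4. A letter follows in 3a, CD34-positive replicate 1, and in 4a, the second CD34-negative library of number 4. CD34-positive replicates 1, 2 and 3 have the numbers 3a, 2 and 4. CD34-negative replicates 1, 2, 3 and 4 have the numbers 3, 2, 4 and 4a. Here 3a is counted as number 3 and 4a as number 4, and what the letters mean is not given. The number-3 comparison, 3a against 3, is thus not an exact match of labels. FPKM scales fragments to transcript length and library total, and each library listed 8606 to 9117 genes at 1 FPKM or more. The number-4 libraries stood apart from the others in both groups, with 2.19% to 4.03% of the summed FPKM in ribosomal protein genes, against 25.7% to 34.0% in the number-2 and number-3 libraries. For the genes of the set, each CD34 difference is therefore also given within equal numbers. For most of the other genes named below it is not. The number of fragments behind the values is unknown, so low values carry an error that cannot be stated.

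The 8 genes encode proteins of unrelated kinds. Neurogranin, encoded by Nrgn, holds calmodulin at neuronal synapses and releases it when calcium rises. Gem is a small GTPase of the RGK family that binds the beta subunits of voltage-gated calcium channels and lowers channel activity. P2rx3 encodes an ATP-gated cation channel known from sensory neurons. Ugt1a7c encodes a UDP-glucuronosyltransferase, an enzyme that attaches glucuronic acid to drugs and endogenous lipophilic compounds. Prss16 encodes the thymus-specific serine protease of cortical thymic epithelium, and Cdh17 encodes LI-cadherin, an adhesion protein of intestinal epithelium. Csrp3 encodes muscle LIM protein, found at the Z-disc of striated muscle, and Acp5 encodes tartrate-resistant acid phosphatase, an enzyme of osteoclasts and some macrophages.

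The labelled cell type was checked against markers. All 8 blood progenitor markers (Ptprc, Kit, Gata2, Tal1, Myb, Runx1, Spn and Lmo2) reached 1 FPKM. Their summed level was 559 to 1010 FPKM among CD34-positive and 839 to 1350 FPKM among CD34-negative libraries. The groups did not overlap for Gata2, with 56.8 to 120 FPKM (CD34-positive) against 242 to 415 FPKM (CD34-negative). Kit ranged from 91.1 to 311 FPKM among CD34-positive and from 44.7 to 522 FPKM among CD34-negative libraries. Ptprc ranged from 12.2 to 49.8 FPKM (CD34-positive) and from 2.26 to 32.0 FPKM (CD34-negative). Replicate 2, of number 2, was the lowest library of each group for both genes. Most markers of the tissues in which the 8 genes are best known were listed at 0 or below 1 FPKM, and their part in the levels below was not tested. Of 6 neuron markers, Snap25, Syt1, Gria1 and Stmn2 were listed at 0 in all libraries, and the list summed to at most 0.303 FPKM among CD34-positive and 1.30 FPKM among CD34-negative libraries. The 6 sensory neuron markers summed to at most 0.237 FPKM among CD34-positive and 0.176 FPKM among CD34-negative libraries. The 7 striated muscle markers, with Myh6, Myh7, Tnnt2 and Myog listed at 0, summed to at most 0.499 FPKM among CD34-positive and 0.479 FPKM among CD34-negative libraries. Of the 5 thymic epithelium markers only Ccl25 reached 1 FPKM, and the list summed to 1.05 to 1.99 FPKM among CD34-positive and 0.998 to 1.54 FPKM among CD34-negative libraries. Of the 6 intestinal epithelium markers only Lgals4 did, while Fabp2, Cdx2 and Krt20 were listed at 0, and the list summed to 0.207 to 3.49 FPKM among CD34-positive and 0.551 to 4.41 FPKM among CD34-negative libraries. The 5 hepatocyte markers summed to 0 in every CD34-positive library and to at most 0.169 FPKM in CD34-negative ones. The 4 osteoclast markers of 6 that were listed summed to at most 0.101 FPKM among CD34-positive and 0.726 FPKM among CD34-negative libraries. The 5 T cell markers summed to 0.855 to 2.20 FPKM among CD34-positive and 0.773 to 1.92 FPKM among CD34-negative libraries.

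The tested genes, 9259 in number, had 1 FPKM or more in 3 or more libraries. The groups did not overlap in 247 with higher values in CD34-positive cells (2.67%) and in 279 with lower values (3.01%). Since the 8 genes were picked from these 526 genes (5.68%), nothing is read from their count. Of the 173 non-overlapping genes that were higher and averaged at least 5 FPKM in the higher group, Ugt1a7c, P2rx3, Nrgn, Gem, Prss16 and Cdh17 held ranks 5 to 10 by size of difference. The next 2 were Pim2, a survival kinase, with a log2 difference of 1.94, and Pglyrp2, an amidase that cleaves bacterial peptidoglycan, with 1.90. Of 217 such genes that were lower, Acp5 held rank 6 and Csrp3 rank 10, and the next 2 were Padi3, a peptidylarginine deiminase, at -3.19 and the mast cell protease Cma1 at -3.10. Across all tested genes, limma called 0 genes higher and 0 lower at an adjusted p under 0.05 (0% in each direction), while an unadjusted p under 0.05 was met by 313 higher genes (3.38%) and 210 lower genes (2.27%). With the description number as a replicate block, limma again called 0 at the adjusted threshold, and 2034 genes had an unadjusted p under 0.05 (22%). When CD34-negative replicate 1 was left out, limma called 15 genes higher and 6 lower.

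Nrgn had the highest level of the 8 in CD34-positive cells. It stood at 138, 181 and 112 FPKM in CD34-positive replicates 1, 2 and 3, against 105, 32.7, 10.3 and 17.1 FPKM in CD34-negative replicates 1, 2, 3 and 4. It averaged 143 ± 34.8 FPKM over the 3 CD34-positive libraries (SD) and 41.4 ± 43.7 FPKM over the 4 CD34-negative libraries (SD), a difference of 2.27 on the log2(FPKM + 1) scale (SE 0.71). The groups were only just apart, since CD34-positive replicate 3 lay 1.06 times above CD34-negative replicate 1. Within equal numbers Nrgn was 5.53 times higher in number 2 and 1.31 times higher in number 3, and CD34-positive number 4 was 10.8 and 6.53 times above CD34-negative 4 and 4a.

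Gem had 55.3, 105 and 50.7 FPKM in CD34-positive replicates 1, 2 and 3, against 38.6, 11.4, 16.5 and 6.85 FPKM in CD34-negative replicates 1, 2, 3 and 4. Mean levels were 70.5 ± 30.3 FPKM over the 3 CD34-positive libraries (SD) and 18.3 ± 14.1 FPKM over the 4 CD34-negative libraries (SD), a log2 difference of 2.07 (SE 0.56). CD34-positive replicate 2 was the highest library and CD34-negative replicate 4 the lowest. The ratio of CD34-positive to CD34-negative was 9.21 in number 2, 1.43 in number 3, and 3.08 and 7.41 in number 4 against 4 and 4a.

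P2rx3 had 14.1, 9.72 and 18.04 FPKM in CD34-positive replicates 1, 2 and 3. In CD34-negative replicates 1, 2, 3 and 4 it had 6.48, 0.673, 0.765 and 0.659 FPKM. In CD34-negative cells the channel was thus below 1 FPKM in all libraries but replicate 1. The means were 13.96 ± 4.16 FPKM over the 3 CD34-positive libraries (SD) and 2.14 ± 2.89 FPKM over the 4 CD34-negative libraries (SD), a log2 difference of 2.57 (SE 0.56). Unlike the other 5 higher genes, P2rx3 was lowest among CD34-positive libraries in replicate 2 and highest in replicate 3. Its ratios were 14.5 in number 2, 2.18 in number 3 and 23.6 and 27.4 in number 4 against 4 and 4a. In the GENCODE M21 annotation 51 of its 2789 exonic bases (1.83%) also lie in exons of Ssrp1 on the opposite strand, a histone chaperone gene with 128 to 177 FPKM among CD34-positive and 76.0 to 143 FPKM among CD34-negative libraries.

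Ugt1a7c had the most even level in CD34-positive cells, with 32.1, 34.3 and 30.4 FPKM in replicates 1, 2 and 3. CD34-negative replicates 1, 2, 3 and 4 had 25.2, 2.31, 1.46 and 1.81 FPKM. The means were 32.3 ± 1.98 FPKM over the 3 CD34-positive libraries (SD) and 7.68 ± 11.7 FPKM over the 4 CD34-negative libraries (SD), a log2 difference of 2.75 (SE 0.77). CD34-negative replicate 1 was close to the CD34-positive libraries and the other 3 were far below them. The ratios were 14.8 in number 2, 1.28 in number 3 and 20.8 and 16.8 in number 4 against 4 and 4a. The count of this gene is uncertain, because genes of the Ugt1a locus splice a first exon of their own to common later exons. Of 4219 exonic bases of Ugt1a7c in GENCODE M21, 2304 (54.6%) are shared on the same strand with other Ugt1a genes, so how the authors' counting divided fragments among them cannot be told from the values. A further 394 bases (9.34%) lie in exons of Gm20528 on the opposite strand.

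Ugt1a6b, the tested relative from that locus, had 18.2, 17.2 and 0.837 FPKM in CD34-positive replicates 1, 2 and 3, against 10.4, 1.38, 0 and 0 FPKM in CD34-negative replicates 1, 2, 3 and 4. Its CD34 difference of 1.92 on the log2 scale (SE 1.06) did not pass in limma (adjusted p = 1.0). With the replicate block the difference was 1.46 (limma adjusted p = 0.112). In the number-4 libraries Ugt1a6b was at or below 0.837 FPKM, while Ugt1a7c in CD34-positive replicate 3 stood at 30.4 FPKM. Ugt1a6b was lower in the number-4 than in the number-2 and number-3 libraries, by a log2 difference of -2.77 (SE 0.52, limma adjusted p = 0.00699).

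Prss16 and Cdh17 had lower levels. Prss16 had 6.30, 12.4 and 6.79 FPKM in CD34-positive replicates 1, 2 and 3, against 4.02, 1.26, 0.457 and 0.701 FPKM in CD34-negative replicates 1, 2, 3 and 4. Its log2 difference was 1.99 (SE 0.46), with ratios of 9.85 in number 2, 1.57 in number 3 and 14.8 and 9.68 in number 4 against 4 and 4a. Both number-4 CD34-negative libraries were below 1 FPKM. Cdh17 had 5.24, 21.9 and 6.28 FPKM in CD34-positive replicates 1, 2 and 3, against 3.45, 1.92, 1.19 and 0.629 FPKM in CD34-negative replicates 1, 2, 3 and 4. Its log2 difference was 1.96 (SE 0.52), with ratios of 11.4 in number 2, 1.52 in number 3 and 5.28 and 9.97 in number 4 against 4 and 4a. CD34-positive replicate 2 held far more Cdh17 than the other CD34-positive libraries.

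Csrp3 and Acp5 were lower in CD34-positive cells, and their groups were farther apart than those of the 6 higher genes. Csrp3 had 9.69, 5.05 and 0.903 FPKM in CD34-positive replicates 1, 2 and 3, against 48.1, 86.2, 27.3 and 35.4 FPKM in CD34-negative replicates 1, 2, 3 and 4. It averaged 5.22 ± 4.40 FPKM over the 3 CD34-positive libraries (SD) and 49.3 ± 26.1 FPKM over the 4 CD34-negative libraries (SD), which is a log2 difference of -3.20 (SE 0.62). The lowest CD34-negative library was still 2.82 times above the highest CD34-positive one. Within equal numbers, CD34-positive over CD34-negative was 0.0586 in number 2, 0.202 in number 3, and 0.0330 and 0.0255 in number 4 against 4 and 4a.

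Acp5 had 2.44, 0.991 and 0.180 FPKM in CD34-positive replicates 1, 2 and 3, against 15.7, 82.0, 9.31 and 38.3 FPKM in CD34-negative replicates 1, 2, 3 and 4. It averaged 1.203 ± 1.14 FPKM over the 3 CD34-positive libraries (SD) and 36.3 ± 32.9 FPKM over the 4 CD34-negative libraries (SD), which is a log2 difference of -3.77 (SE 0.71). CD34-positive replicate 1, the highest of its group, was 3.82 times below CD34-negative replicate 3, the lowest of its group. The ratio was 0.0121 in number 2, 0.156 in number 3, and 0.0193 and 0.0047 in number 4 against 4 and 4a, although a value as low as 0.180 FPKM makes the last 2 ratios imprecise. In GENCODE M21, 137 of its 2030 exonic bases (6.75%) also lie in exons of 6530413G14Rik on the opposite strand. In bulk RNA, fewer cells with a transcript and less transcript per cell cannot be told apart, here and for every gene named.

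**Figure D1:**
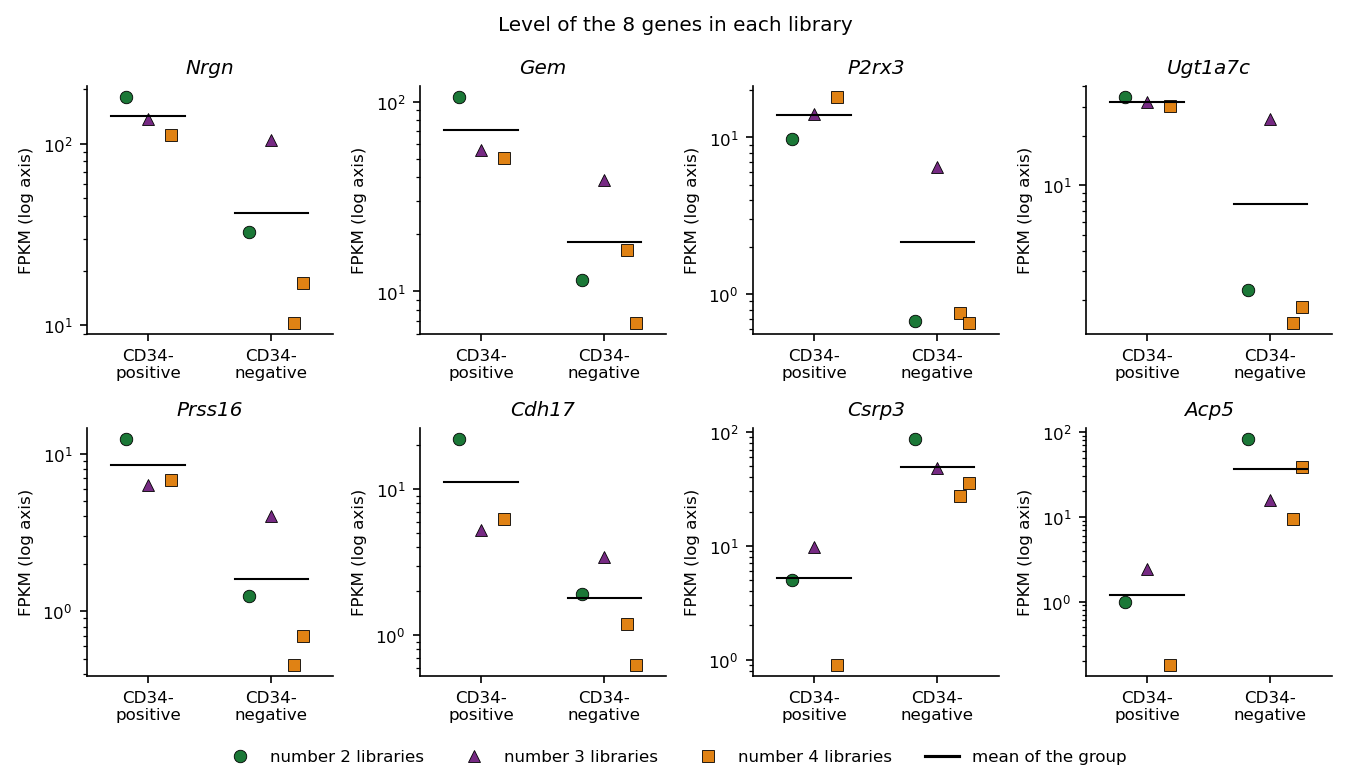
FPKM on a log axis of the 8 genes in CD34-positive (left) and CD34-negative (right) libraries, 1 point per library, with marker shape and colour for the description number and a bar for the group mean (n = 3 and 4). The number-3 CD34-negative library (triangle) is the highest of its group for the first 6 genes, close under the CD34-positive libraries, while Csrp3 and Acp5 leave a wide gap.

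Per unit of length, the order of the levels in CD34-positive cells was Nrgn, Gem, Ugt1a7c, P2rx3, Cdh17, Prss16, Csrp3 and Acp5. The ranges of the libraries were apart between Nrgn and Gem, Gem and Ugt1a7c, and Ugt1a7c and P2rx3, and overlapped between all later neighbours in that order. In CD34-negative cells the order was Csrp3, Nrgn, Acp5, Gem, Ugt1a7c, P2rx3, Cdh17 and Prss16, and the ranges of all neighbours overlapped. Csrp3, seventh in CD34-positive cells, was thus first by mean in CD34-negative cells.

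CD34-negative replicate 1 was the library nearest to the CD34-positive group for all 6 higher genes. The ratio of CD34-positive to CD34-negative for these 6 genes was between 1.28 and 2.18 in number 3, where in number 2 it was between 5.53 and 14.8. Cd34 itself had 147, 256 and 153 FPKM in CD34-positive replicates 1, 2 and 3, against 91.8, 19.3, 2.67 and 6.02 FPKM in CD34-negative replicates 1, 2, 3 and 4, so the sorted marker was also high in that CD34-negative library. The choice of the genes fixes the direction of these differences. Without that library the log2 differences were 2.89 for Nrgn, 2.501 for Gem, 3.10 for P2rx3, 3.55 for Ugt1a7c, 2.36 for Prss16, 2.21 for Cdh17, -3.17 for Csrp3 and -4.01 for Acp5.

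**Figure D2:**
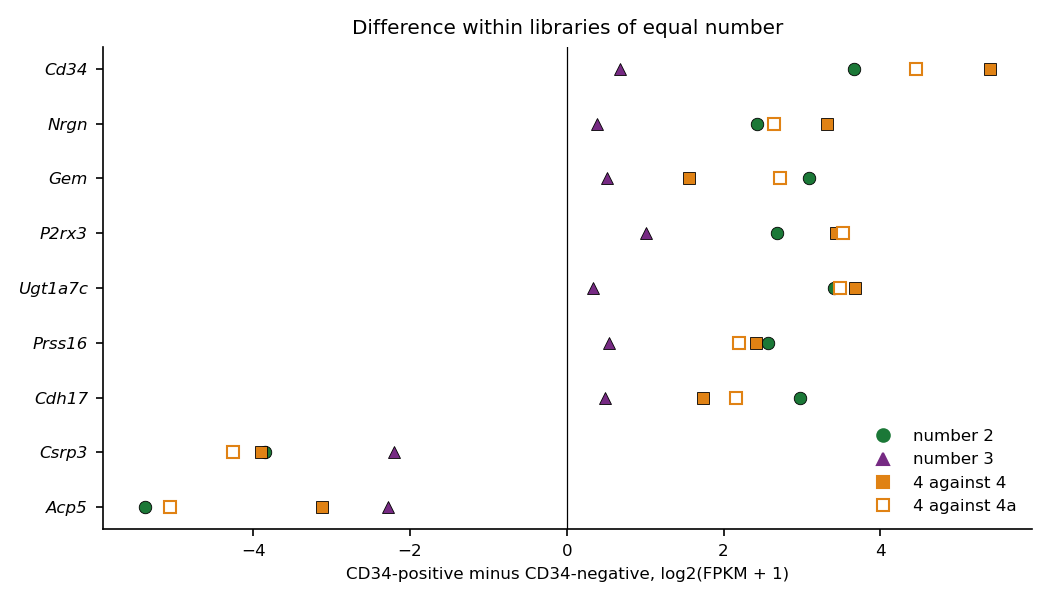
Difference in log2(FPKM + 1), CD34-positive minus CD34-negative, of Cd34 and the 8 genes within number 2 (circle), number 3 (triangle), and number 4 against CD34-negative 4 (filled square) and 4a (open square). Every difference of a gene has the same sign, and number 3 gives the smallest size for all 9 genes.

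The number-4 libraries were also compared with the number-2 and number-3 libraries. The genes were not picked by this contrast, but it uses the same libraries and values. All 8 had lower fitted values in number 4, although P2rx3 turned to 0.31 without CD34-negative replicate 1. In a limma fit over all genes with the CD34 group as a term, only Csrp3 passed, with a log2 difference of -1.45 (SE 0.35, adjusted p = 0.0178). That is 1 of 8 genes, where 2842 of 9259 tested genes passed as lower (30.7%) and 549 as higher (5.93%), 36.6% in all. A wide difference between library numbers makes the CD34 groups more likely to overlap. The choice of the genes thus bears on this share, and nothing is read from it. Nrgn was next, with -1.43 (SE 0.50, limma adjusted p = 0.0572), and P2rx3 moved least, with -0.40 (SE 0.57, limma adjusted p = 0.604). The median over all tested genes was -0.29, and quantile normalization brought it to 0.02 and changed the split of calls to 1529 higher and 1478 lower. Csrp3 then had -1.03 (limma adjusted p = 0.0807). Csrp3 also did not pass in limma without CD34-positive replicate 3 (-1.03, adjusted p = 0.150) or without CD34-negative replicate 3 (-1.46, adjusted p = 0.0538). Without CD34-positive replicate 1, Nrgn (-1.60, limma adjusted p = 0.0496) and Cdh17 (-1.17, limma adjusted p = 0.0250) passed.

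**Figure D3:**
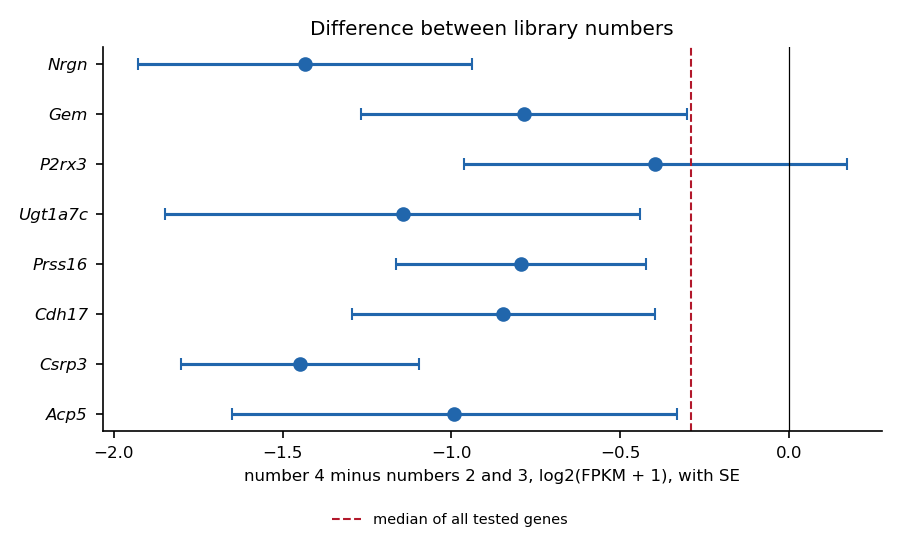
Fitted difference in log2(FPKM + 1), number-4 minus number-2 and number-3 libraries, with its SE, for the 8 genes. All points lie below 0, and the dashed line at -0.29 is the median of all tested genes.

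By position, the 8 genes lie on 6 chromosomes in GENCODE M21 (GRCm38). The deposited table gives no coordinates, and its notes name mm9 and mm10 without saying which was used. Nrgn lies at chr9:37544492-37552904 (minus strand), P2rx3 at chr2:84998583-85037462 (minus), Ugt1a7c at chr1:88095062-88220002 (plus) and Prss16 at chr13:22002173-22009742 (minus). Csrp3 lies at chr7:48830398-48848033 (minus) and Acp5 at chr9:22126727-22135711 (minus). Gem at chr4:11704457-11714752 and Cdh17 at chr4:11758147-11817895 are neighbours on the plus strand, 43394 bases apart with 0 other coding genes between them. The coding genes that flank this pair did not separate the groups. Rad54b, a recombination helicase gene on the Gem side, had 2.93, 3.39 and 6.39 FPKM in CD34-positive replicates 1, 2 and 3, against 2.30, 1.89, 3.76 and 4.56 FPKM in CD34-negative replicates 1, 2, 3 and 4. Pdp1, a pyruvate dehydrogenase phosphatase gene on the Cdh17 side, had 3.56, 5.67 and 2.82 FPKM in the CD34-positive and 3.13, 1.75, 2.98 and 2.55 FPKM in CD34-negative libraries. Neither passed in limma (log2 difference 0.34 with SE 0.35 and 0.45 with SE 0.30, adjusted p = 1.0 for each). With the replicate block the limma adjusted p was 0.149 for Rad54b and 0.366 for Pdp1.

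RefSeq promoter windows on GRCm38.p6, from 250 bases before to 50 after a listed start, were given for Nrgn (1 start), Ugt1a7c (1 start), Csrp3 (2 starts) and Acp5 (3 starts), and not for Gem, P2rx3, Prss16 and Cdh17. They were searched on both strands for AGATAA or TGATAA, letters bound by GATA factors, for CTTTGA, bound by TCF/LEF factors, and for TGTGGT, bound by RUNX factors. All 3 families have members known to act in blood progenitors. The windows of a pair of higher genes and of both lower genes are shown to set the motif letters beside their levels, with matches in capitals, read 5′ to 3′ on the gene's strand. They are Nrgn at chr9:37552696-37552995 (minus), Ugt1a7c at chr1:88094751-88095050 (plus), Csrp3 at its first listed start, chr7:48848002-48848301 (minus), and Acp5 at its first listed start, chr9:22135697-22135996 (minus).
Nrgn: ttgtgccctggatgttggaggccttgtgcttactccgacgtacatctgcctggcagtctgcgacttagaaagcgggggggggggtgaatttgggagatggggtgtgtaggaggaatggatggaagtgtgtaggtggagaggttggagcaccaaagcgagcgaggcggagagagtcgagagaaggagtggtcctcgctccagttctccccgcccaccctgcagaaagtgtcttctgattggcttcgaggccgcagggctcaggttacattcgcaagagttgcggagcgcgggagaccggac
Ugt1a7c: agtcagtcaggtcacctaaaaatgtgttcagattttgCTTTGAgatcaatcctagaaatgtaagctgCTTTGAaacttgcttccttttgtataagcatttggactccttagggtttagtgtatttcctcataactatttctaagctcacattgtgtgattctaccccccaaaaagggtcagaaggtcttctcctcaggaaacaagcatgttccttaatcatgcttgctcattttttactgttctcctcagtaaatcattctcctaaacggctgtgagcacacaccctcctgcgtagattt
Csrp3: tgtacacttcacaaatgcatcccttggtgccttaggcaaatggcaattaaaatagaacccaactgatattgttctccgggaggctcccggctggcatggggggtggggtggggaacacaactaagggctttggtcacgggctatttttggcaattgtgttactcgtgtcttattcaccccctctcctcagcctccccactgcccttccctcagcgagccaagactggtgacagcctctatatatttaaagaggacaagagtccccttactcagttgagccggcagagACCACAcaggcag
Acp5: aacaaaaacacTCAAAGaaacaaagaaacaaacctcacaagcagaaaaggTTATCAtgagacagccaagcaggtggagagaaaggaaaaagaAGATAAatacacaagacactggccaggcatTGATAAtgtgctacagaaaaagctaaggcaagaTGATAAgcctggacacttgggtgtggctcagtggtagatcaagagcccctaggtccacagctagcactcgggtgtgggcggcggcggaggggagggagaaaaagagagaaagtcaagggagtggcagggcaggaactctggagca
The Acp5 window held 4 GATA matches, 3 on the printed strand and 1 on the other, and 1 TCF/LEF match on the other strand. Of 32851 windows of this length, 18.6% held at least 1 GATA match and 0.502% held 3 or more. The Ugt1a7c window held 2 TCF/LEF matches, where 16.0% of windows held at least 1 and 1.73% held 2 or more. The Csrp3 window held 1 RUNX match on the other strand, against 16.8% of windows with at least 1, and the Nrgn window held none of the 3 motifs. The second Csrp3 start and the other Acp5 starts held no match. Which of the listed starts EML cells use was not measured here.

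Likeness of pattern was measured as the root mean square difference between mean-centred log2(FPKM + 1) profiles over the 7 libraries, where 0 is the same profile. It uses the same 7 values by which the 8 genes were picked, so a short distance to other separated genes and a long one to the median gene follow from that choice and support nothing. No cell type is read from the genes nearest to Csrp3 and Acp5. The mast cell protease gene Cma1 was also lower in CD34-positive cells, with a mean of 173 FPKM against 2000 FPKM in CD34-negative cells. Its CD34-negative replicates 1, 2, 3 and 4 had 695, 1502, 4886 and 915 FPKM, so replicate 3 carried that mean, and the median was 1209 FPKM. Csrp3 was nearest to Gata1, an erythroid transcription factor (0.346), and Padi3 (0.601), where the median over all tested genes was 1.84. Acp5 was nearest to Klf1, an activator of globin genes (0.313), and the tetraspanin gene Tspan33 (0.391), where that median was 2.19. Gata1 had 24.0, 16.3 and 4.61 FPKM in CD34-positive replicates 1, 2 and 3, against 67.1, 167, 55.8 and 70.9 FPKM in CD34-negative replicates 1, 2, 3 and 4. Klf1 had 5.38, 3.10 and 0.427 FPKM in the CD34-positive and 29.1, 175, 12.1 and 53.6 FPKM in the CD34-negative replicates, in the same order of libraries as Acp5 within each group.

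The 6 higher genes had other neighbours. Nrgn was nearest to 9030619P08Rik (0.176) and to the TNF receptor gene Tnfrsf1a (0.219), where the median over tested genes was 1.43. Gem was nearest to Camk2a (0.260) and Tmem173, the gene of the cytosolic DNA sensor adaptor STING (0.303). P2rx3 was nearest to Hlf, a stem cell transcription factor gene (0.315), and Thsd1 (0.354), and Ugt1a7c to the organic anion transporter gene Slco3a1 (0.324) and the NF-kappaB cofactor gene Bcl3 (0.327). Prss16 was nearest to Pglyrp2 (0.195) and the activin receptor-like kinase gene Acvrl1 (0.204), and Cdh17 to Acvrl1 (0.255) and the lectin gene Mgl2 (0.269). Hlf had 9.08, 4.66 and 9.12 FPKM in CD34-positive replicates 1, 2 and 3, against 5.42, 0.263, 0.616 and 0.488 FPKM in CD34-negative replicates 1, 2, 3 and 4, so it shared with P2rx3 its lowest CD34-positive value in replicate 2. Among the 8 genes themselves, Prss16 and Cdh17 were the closest pair (0.375), Prss16 and Gem were next (0.408), and Gem and Cdh17 differed by 0.435. Csrp3 and Acp5 differed by 0.706. All these profiles share the same 7 libraries, and the distances are descriptions.

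**Figure D4:**
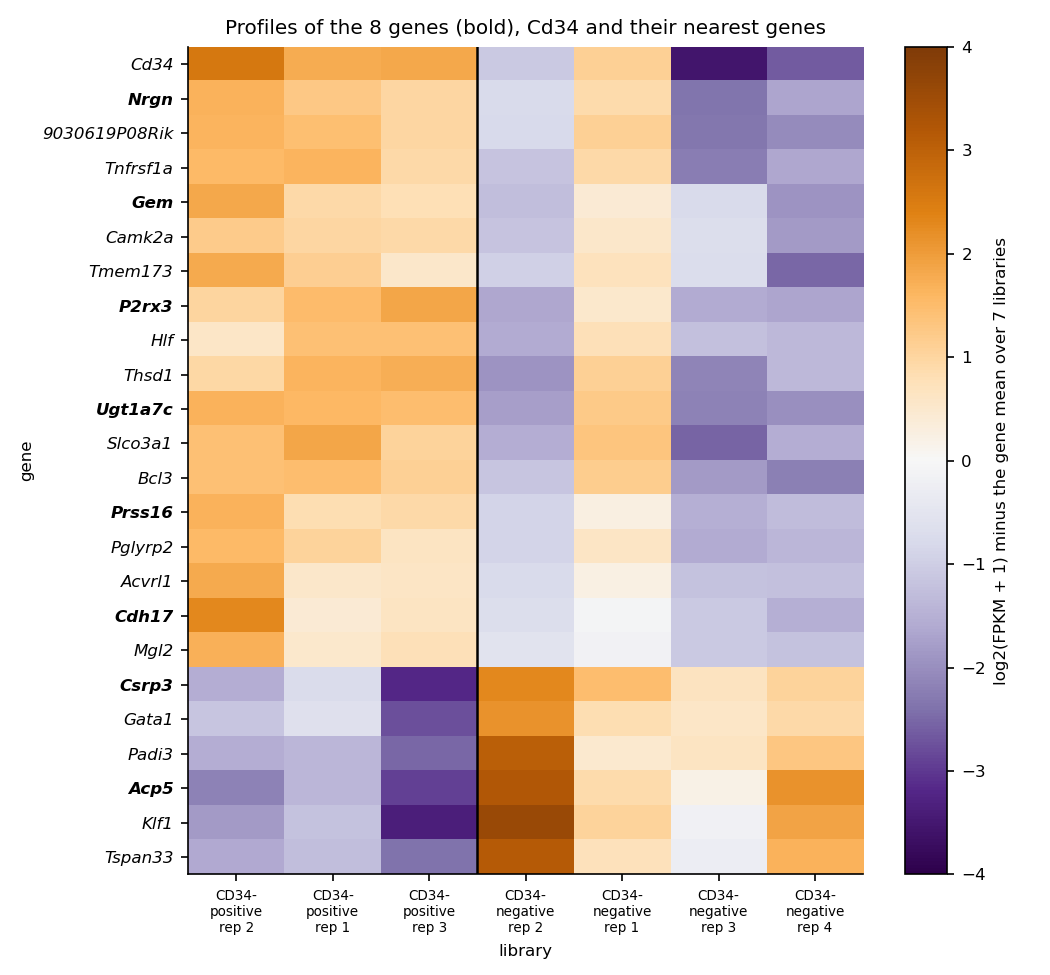
Log2(FPKM + 1) minus the mean over 7 libraries, for Cd34, the 8 genes (bold) and the 2 genes nearest to each, with the 3 CD34-positive libraries left of the line and the 4 CD34-negative libraries right of it. CD34-negative replicate 1 is above the mean for Cd34 and for 5 of the 6 higher genes, Cdh17 being the exception.

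Relatives and partners of the 8 genes were examined in 9 lists of 162 genes, of which 62 reached the minimum level and were tested. Limma over all genes called 0 of them in either direction. An unadjusted p under 0.05 was reached by 6 higher and 2 lower genes, and with the replicate block by 18 higher and 7 lower genes, beside 5.65% and 22% of all tested genes. The groups were apart in 5 with higher and 2 with lower values, beside 2.67% and 3.01% of all tested genes. The median difference of the 9 lists lay between -0.19 (acid phosphatases) and 0.63 (glucuronidation), where the median over all tested genes was 0.09. Of 22 calmodulin genes and partners listed for Nrgn, 14 were tested. Calm2 and Calm3, which encode calmodulin, had high levels that did not separate the groups. Calm2 averaged 299 ± 99.6 FPKM in the CD34-positive group and 202 ± 81.6 FPKM in the CD34-negative group (SD, n = 3 and 4) and Calm3 averaged 223 ± 120 FPKM (CD34-positive) against 254 ± 162 FPKM (CD34-negative). Camk2a, the alpha subunit of a calmodulin-dependent kinase best known from synapses, had the largest difference of the tested genes in this list. It had 62.3, 71.8 and 58.5 FPKM in CD34-positive replicates 1, 2 and 3. CD34-negative replicates 1, 2, 3 and 4 had 45.7, 13.1, 19.1 and 7.87 FPKM. Its log2 difference of 1.81 (SE 0.53) did not pass in limma (adjusted p = 0.647). With the replicate block the difference was 1.705 (limma adjusted p = 0.0982). The groups were also apart for Camk2g (CD34-positive 14.6 against CD34-negative 10.1 FPKM) and Ppp3cc (CD34-positive 7.60 against CD34-negative 4.30 FPKM).

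Most genes listed for Gem were below the minimum level. Only 3 of 20 were tested, the kinases Rock1 and Rock2 and the GTPase-activating protein Gmip, which binds Gem. None of the RGK relatives Rrad, Rem1 and Rem2 reached the minimum. Rock1 averaged 19.7 ± 6.12 FPKM in the CD34-positive group and 21.8 ± 6.88 FPKM in the CD34-negative group (SD, n = 3 and 4), Rock2 6.34 FPKM (CD34-positive) against 5.96 FPKM (CD34-negative) and Gmip 7.64 FPKM (CD34-positive) against 9.13 FPKM (CD34-negative). Among the prolyl peptidases and thymic genes listed for Prss16, 6 of 10 were tested. Prep (CD34-positive 56.2 against CD34-negative 63.3 FPKM), Dpp9 (CD34-positive 21.1 against CD34-negative 22.3 FPKM) and Dpp8 (CD34-positive 19.4 against CD34-negative 21.0 FPKM) differed by less than the spread between libraries. That spread includes the difference between library numbers. In number 2, number 3, and number 4 against 4 and 4a, the log2 differences were -0.49, -0.18, -0.06 and -0.50 for Prep. They were -0.41, 0.05, -0.29 and -0.10 for Dpp9, and 0.44, 0.07, -0.08 and -0.11 for Dpp8. Of 18 cadherins and catenins, 4 were tested, Cdh24, Ctnna1, Ctnnb1 and Jup. Among these, Jup was the gene whose groups were apart, in the direction opposite to Cdh17. The beta-catenin gene Ctnnb1 averaged 95.3 ± 27.7 FPKM in the CD34-positive group and 83.1 ± 32.5 FPKM in the CD34-negative group (SD, n = 3 and 4), Ctnna1 40.6 FPKM (CD34-positive) against 57.0 FPKM (CD34-negative) and Jup 3.83 FPKM (CD34-positive) against 6.40 FPKM (CD34-negative).

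For Ugt1a7c, 7 of 30 genes of glucuronidation and the xenobiotic response were tested. Gusb, the lysosomal enzyme that removes glucuronic acid, averaged 90.9 ± 40.6 FPKM in the CD34-positive group and 58.4 ± 32.3 FPKM in the CD34-negative group (SD, n = 3 and 4). Nfe2l2, a regulator of detoxification genes, averaged 50.8 FPKM (CD34-positive) against 39.0 FPKM (CD34-negative), and Ugdh, which makes the sugar donor, 12.4 FPKM (CD34-positive) against 8.30 FPKM (CD34-negative). For P2rx3, 8 of 18 nucleotide receptors and ectonucleotidases were tested. From its own channel family, P2rx1 averaged 31.7 ± 9.21 FPKM (CD34-positive) against 59.6 ± 21.2 FPKM (CD34-negative) and P2rx4 27.8 ± 3.90 FPKM (CD34-positive) against 37.1 ± 11.9 FPKM (CD34-negative) (SD, n = 3 and 4). Neither passed in limma (adjusted p = 0.928 and 1.0). With the replicate block the limma adjusted p was 0.145 for P2rx1 and 0.433 for P2rx4. Panx1, a channel that releases ATP, averaged 22.4 ± 11.3 FPKM in the CD34-positive group and 12.5 ± 7.15 FPKM in the CD34-negative group. P2ry2, with the largest difference of the tested genes in this list, averaged 9.21 FPKM (CD34-positive) against 2.97 FPKM (CD34-negative). Its log2 difference of 1.69 (SE 0.55) did not pass in limma (adjusted p = 0.686). With the replicate block that difference was 1.52 (limma adjusted p = 0.0931). The UDP-sugar receptor gene P2ry14 averaged 10.7 ± 2.82 FPKM in the CD34-positive group and 4.33 FPKM in the CD34-negative group, and the groups were apart, as they were in the other direction for P2ry1 (CD34-positive 0.757 against CD34-negative 1.81 FPKM).

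Of 22 LIM-domain proteins and Z-disc partners listed for Csrp3, 11 were tested. Its paralog Csrp1 averaged 59.6 ± 25.3 FPKM in the CD34-positive group and 70.5 ± 22.4 FPKM in the CD34-negative group (SD, n = 3 and 4), while Csrp2 did not reach the minimum. Crip1 averaged 261 FPKM (CD34-positive) against 223 FPKM (CD34-negative), Ldb1 91.6 FPKM (CD34-positive) against 101 FPKM (CD34-negative) and Zyx 94.6 FPKM (CD34-positive) against 86.5 FPKM (CD34-negative). The Z-disc genes Tcap, Ldb3 and Actn2 did not reach the minimum. For Acp5, 3 of 5 acid phosphatases and 6 of 17 osteoclast genes were tested. Acp1 averaged 20.5 ± 11.5 FPKM in the CD34-positive group and 15.8 ± 11.04 FPKM in the CD34-negative group (SD, n = 3 and 4), Acp6 14.3 FPKM (CD34-positive) against 17.6 FPKM (CD34-negative) and Acp2 2.22 FPKM (CD34-positive) against 2.95 FPKM (CD34-negative). Itgb3, an integrin subunit, averaged 27.5 FPKM (CD34-positive) against 16.8 FPKM (CD34-negative), Nfatc1, a master regulator of osteoclasts, 15.7 FPKM (CD34-positive) against 17.1 FPKM (CD34-negative), and Ostm1, a partner of a lysosomal chloride transporter, 18.7 FPKM (CD34-positive) against 19.8 FPKM (CD34-negative). The osteoclast genes Ctsk, Calcr and Atp6v0d2 did not reach the minimum in cells where Acp5 reached 82.0 FPKM. Tcirg1, a proton pump subunit gene of osteoclasts, was the gene of that list whose groups were apart, in the direction opposite to Acp5, with means of 2.23 FPKM (CD34-positive) against 0.884 FPKM (CD34-negative). Its log2 difference of 0.76 did not pass in limma (adjusted p = 0.707). With the replicate block the difference was 0.70 (limma adjusted p = 0.0982).

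**Figure D5:**
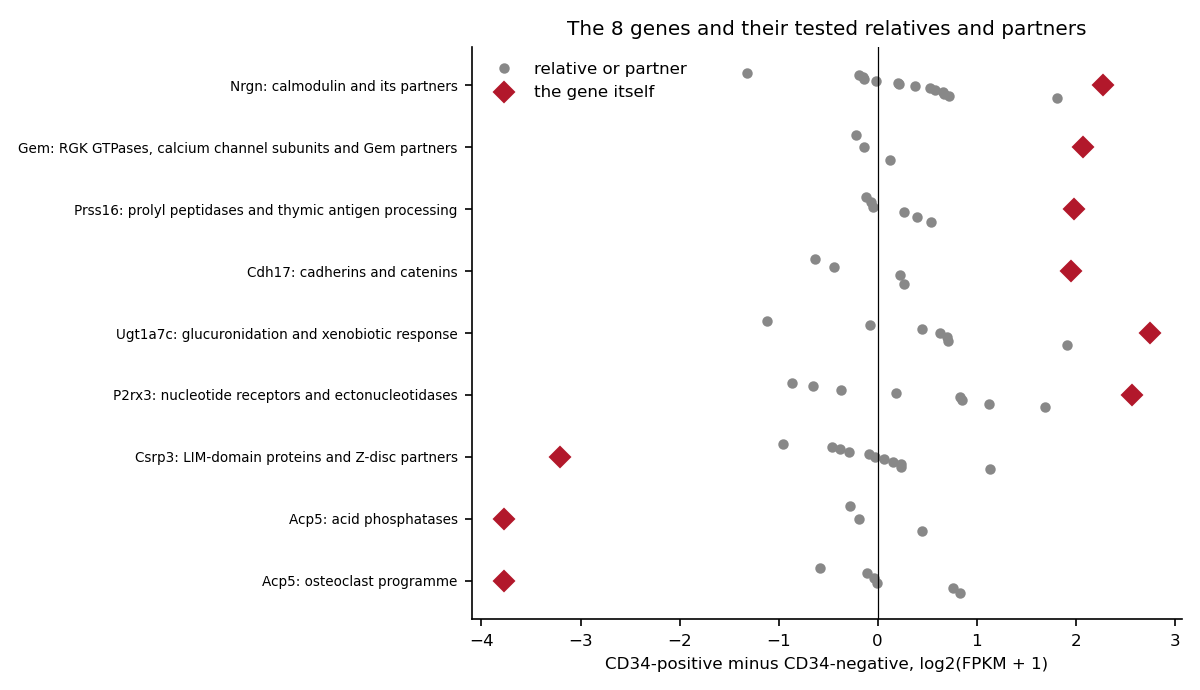
Difference in log2(FPKM + 1), CD34-positive minus CD34-negative, of each of the 8 genes (diamonds) and of its tested relatives and partners (grey points), 1 row per list. The diamonds, picked for this difference, lie at 1.96 to 2.75 and at -3.20 and -3.77, while the relatives lie between -1.32 and 1.92.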

How the data were processed

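RNA of 7 libraries of sorted EML cells was compared, 3 CD34-positive and 4 CD34-negative. The authors' deposited table gives 1 FPKM value per gene and library. That the values are FPKM was inferred from their range and the tools named. Per the submitters' processing notes, TopHat, TopHat2 and Cuffdiff were used with mm9 and mm10, in no stated order or version. Strand use and annotation: not given in the sources used here. Fragment numbers are unknown, though low values moved in steps. Among genes under 0.5 FPKM, the commonest ratio was 1.75 for CD34-positive over CD34-negative replicate 1 (217 of 1083 genes) and 0.811 for CD34-positive over CD34-negative replicate 3 (206 of 1296). Of 20464 rows, 322 with a symbol listed more than once (105 symbols) were left out, leaving 20142 genes.

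Groups came from the sample titles. Values were tested as log2(FPKM + 1), so changes of low genes are understated. The 9259 genes that had 1 FPKM or more in 3 or more libraries entered limma 3.58.1 in R 4.3.3, with Benjamini-Hochberg adjustment over all of them and a threshold of 0.05. The fit was checked on simulated data. For the CD34 fit without the replicate block, those data lacked the variation between library numbers, so the check does not cover it. The number-4 contrast carried the CD34 group as a term. The 8 genes, the marker lists and the lists of relatives were chosen with earlier results of these data known. Other genes were named as the 3 of highest mean in each list (1 of which is not reported here), the 2 nearest profiles of each gene, or the next 2 by rank among separated genes. Further relatives and flanking genes were picked for mention after their values were seen.

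The description numbers were taken to pair libraries. Deviations from the group means correlated across genes at 0.703, 0.915, 0.823 and 0.846 for equal numbers, and at -0.858 to 0.372 for unlike ones. In number 4, pairing and the low ribosomal protein share cannot be told apart. Alternatives were other scalings, pseudocounts of 0.1, a minimum of 5 FPKM, a replicate block, library subsets and leaving out each library.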

Additional observations from a re-analysis of the deposited data

Results flagged for a closer look

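In 5 of 53 named genes checked, the highest or lowest of the 4 CD34-negative libraries lay far from the others, with a gap to its nearest neighbour above Dixon's 95% critical value, taken over the group's whole range. Chance gives such a gap in about 1 group in 20, and the genes share the same libraries. CD34-negative replicate 1 was the high library for P2rx3 (gap 0.959 of the range), Ugt1a7c (0.874), Hlf (0.849) and Calm2 (0.846), and Cd34 had 91.8 FPKM in that library. CD34-negative replicate 2 stood apart for Ostm1 (0.851).

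For Dpp8 the differences between CD34-positive and CD34-negative libraries of equal number went in opposite directions. They were 0.44 in number 2 and 0.07 in number 3, and -0.08 and -0.11 in number 4 against 4 and 4a on the log2 scale, a contrast of 0.345. The difference was not tested.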

How the results depend on the processing

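The CD34 differences of the 8 genes kept their direction in all 111 alternative values, a direction fixed by how they were chosen. Of these, 110 moved by less than 1 SD, the pooled SD of single libraries within the groups. That is a wide limit: Nrgn, with an SD of 1.104, went from 2.27 to 1.41 with numbers 2 and 3 alone and counts as unmoved. P2rx3 has no value for numbers 2 and 4 alone, where it did not reach the minimum level. Prss16 moved to 2.70 with a pseudocount of 0.1. With the replicate block by description number the differences were 2.03 for Nrgn, 1.94 for Gem, 2.499 for P2rx3, 2.56 for Ugt1a7c, 1.85 for Prss16, 1.82 for Cdh17, -3.45 for Csrp3 and -3.93 for Acp5. The block changed no call over all genes or relatives. Leaving out 1 library, 278 to 848 genes were non-overlapping and higher and 326 to 487 lower, and limma called 0 to 15 higher and 0 to 6 lower, with 15 and 6 without CD34-negative replicate 1. Non-overlapping higher genes numbered 162 with a 5 FPKM minimum. Numbers 2 and 3 alone gave 1053 higher and 1105 lower, and numbers 2 and 4 alone, chosen after seeing the data, 814 and 525; fewer libraries separate more easily by construction. For the number-4 contrast, limma called 1529 higher and 1478 lower under quantile normalization and 1355 and 1524 under median-ratio scaling, and 69 to 957 higher and 995 to 2832 lower leaving out 1 library. There Csrp3 had -1.03 under quantile normalization (limma adjusted p = 0.0807) and -0.87 without the CD34 term (adjusted p = 0.604). Leaving out 1 library, the ranges were -1.76 to -1.03 for Csrp3, -2.06 to -0.86 for Nrgn, -1.17 to -0.55 for Cdh17 and -1.05 to 0.31 for P2rx3, which reversed without CD34-negative replicate 1. The cause of these changes was not tested. No relative was called by limma under any alternative. With unknown fragment numbers, values below 1 FPKM limit the ratios of P2rx3, Prss16, Cdh17, Csrp3 and Acp5.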

Other observations

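Within 2 coding genes on each side of the 8 genes lie 28 other genes, of which 13 were tested. Limma called 0 of them between CD34-positive and CD34-negative cells, 3 had an unadjusted p under 0.05, where 5.65% of all tested genes did, and with the replicate block 9 did, where 22% of all tested genes did. The groups were apart in 2 with higher and 2 with lower values, where they were in 2.67% and 3.01% of all tested genes. Siae, a sialic acid esterase gene beside Nrgn, had 9.48, 7.66 and 8.81 FPKM in CD34-positive replicates 1, 2 and 3, against 6.87, 3.21, 2.87 and 3.75 FPKM in CD34-negative replicates 1, 2, 3 and 4. E2f8, a cell cycle repressor gene beside Csrp3, had 20.3, 14.2 and 19.3 FPKM in CD34-positive replicates 1, 2 and 3, against 28.0, 27.9, 36.8 and 53.6 FPKM in CD34-negative replicates 1, 2, 3 and 4. Siae lay on the same side as Nrgn, and E2f8 on the same side as Csrp3. These genes were chosen for mention after their values were seen.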
